A study of Mus musculus with 4 samples.

Results

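A set of 10 genes of the Wnt pathway was followed by symbol in the deposited matrices of day 6 embryoid bodies (EBs), where all 10 of 10 were found among 25209 genes. They were the ligands Wnt3, Wnt5a, Wnt6 and Wnt8a, the secreted antagonists Dkk1, Sfrp1 and Sfrp2, and Axin2, Lef1 and Sp5, which respond to or carry the signal. EBs are aggregates in which embryonic stem cells (ESCs) differentiate into many cell types without directing signals. Droplet single-cell RNA-seq with 3′ tags gave 2 wild-type (WT) and 2 LSD1 KO libraries, all of day 6. WT cells were V6.5 mouse ESCs, and the LSD1 KO cells carried a CRISPR deletion of the promoter and first exon of Kdm1a, the gene of the histone demethylase LSD1. Before differentiation both genotypes were kept with LIF, a MEK inhibitor and a GSK inhibitor, which itself activates Wnt signalling, and EBs then formed in hanging drops of serum medium without these agents. Edited clones were picked individually, and the study describes its RNA-seq replicates as coming from separate clones, without saying whether this covers the single-cell libraries.

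Wnt ligands are secreted proteins that bind Frizzled receptors with the co-receptors Lrp5 and Lrp6 and thereby stop the destruction of β-catenin, which then enters the nucleus and switches on genes through Tcf and Lef factors. Dkk1 blocks the co-receptors, and Sfrp proteins bind the ligands outside the cell. In the early mouse embryo Wnt3 is needed for the primitive streak, from which mesoderm and endoderm arise, and Dkk1 from anterior tissue keeps the signal low where the head forms.

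Barcodes with at least 500 UMIs (unique molecular identifiers, each 1 captured transcript) and 500 genes were taken as cells, which left 4393 cells in WT replicate 1 (WT1), 6828 in WT2, 5693 in LSD1 KO replicate 1 (KO1) and 3045 in KO2, from libraries of 72285943 to 75406512 UMIs. Paired values below are in the order of replicates 1 and 2. Library pairs shared 3 to 15 cell barcodes. Kdm1a lay at 221 and 246 CPM (UMIs of a gene scaled to the same library total) in the WT libraries and at 1.10 and 0.81 CPM in the LSD1 KO libraries, although the 3′ tags counted do not read the deleted part itself. Cells were placed in gates by markers: a cell entered the gate of which it showed the most of 6 marker genes, if at least 3 were seen and no other gate had as many. No Wnt gene was a marker. The gates were not clusters, and between 44.3% and 58.2% of the cells of a library entered one.

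Gates of visceral endoderm-like, lateral mesoderm-like, mesenchyme-like, endothelial-like, Krt7 Cldn4 epithelial and Shh Six3 anterior cells held at least 30 cells in both WT libraries and in neither LSD1 KO library. The lateral mesoderm-like gate, for example, held 801 and 874 cells in WT and 0 in LSD1 KO. The gate of Nefm, Nefl, Stmn2, Tafa4, Pim2 and Pou3f1, here the Nefm Pou3f1 gate, held 95 and 238 cells in WT and 2268 and 1190 in LSD1 KO. The streak-like gate (Mixl1, Mesp1, Eomes, Lhx1, Fgf8, Gsc) held 62 and 212 cells in WT and 632 and 60 in LSD1 KO, so that it made up 11.1% of KO1 and 1.97% of KO2. Only these 2 gates and the ungated cells could be compared between genotypes with every library.

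The gates did not hold the same cells in both genotypes. In the streak-like gate Mixl1 was seen in 10.2% of WT and 88.4% of LSD1 KO cells, and the median LSD1 KO cell there also showed 2 of the 6 Nefm Pou3f1 markers. In the Nefm Pou3f1 gate Nefm was seen in 24.6% of WT and 65.5% of LSD1 KO cells, while Pou3f1 was seen in 87.7% and 78.9%. The part of these differences in the values below was not tested.

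Promoters are shown for Sp5, Dkk1 and Axin2, because these are well-known Wnt-responsive genes. In whole EBs Dkk1 fell in LSD1 KO, while Sp5 and Axin2 lay higher, Axin2 without passing the test given below. Each stretch is the RefSeq sequence on GRCm38.p6 from 250 bases before to 50 bases after the gene's start, 5′ to 3′ on the gene's strand. Capitals mark CTTTGA on either strand, the letters that Tcf and Lef factors are known to bind, as CTTTGA or its reverse complement TCAAAG. Sp5 is at chr2:70474673-70474972 (plus strand), Dkk1 at chr19:30549447-30549746 (minus strand) and Axin2 at chr11:108920099-108920398 (plus strand).
Sp5: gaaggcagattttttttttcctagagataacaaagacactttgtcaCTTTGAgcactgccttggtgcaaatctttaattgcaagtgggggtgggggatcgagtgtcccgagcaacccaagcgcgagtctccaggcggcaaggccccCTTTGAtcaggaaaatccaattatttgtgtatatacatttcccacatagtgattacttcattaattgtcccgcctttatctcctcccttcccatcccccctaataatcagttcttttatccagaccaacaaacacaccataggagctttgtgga
Dkk1: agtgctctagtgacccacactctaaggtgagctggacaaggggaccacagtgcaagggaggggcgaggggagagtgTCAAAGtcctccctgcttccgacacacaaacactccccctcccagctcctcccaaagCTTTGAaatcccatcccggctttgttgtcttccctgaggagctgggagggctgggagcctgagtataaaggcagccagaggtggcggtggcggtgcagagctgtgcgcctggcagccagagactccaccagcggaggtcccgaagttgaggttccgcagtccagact
Axin2: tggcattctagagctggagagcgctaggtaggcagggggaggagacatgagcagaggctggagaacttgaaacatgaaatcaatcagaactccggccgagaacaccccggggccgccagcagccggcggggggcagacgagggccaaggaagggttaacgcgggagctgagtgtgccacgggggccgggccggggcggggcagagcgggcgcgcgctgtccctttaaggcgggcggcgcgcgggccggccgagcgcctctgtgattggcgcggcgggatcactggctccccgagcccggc
The Sp5 promoter held 2 matches, beginning 204 and 104 bases before the start, and the second ran on to the longer form CTTTGATC. The Dkk1 promoter held 2 matches, at 174 and 117 bases before the start, and the Axin2 promoter held 0 in this window. Of 32851 promoters of the same length, 16.003% held CTTTGA and 0.938% held CTTTGATC on either strand, the longer form counting within the shorter. Of the 10 genes 7 were matched in the table by symbol. Wnt3, Wnt6 and Sfrp2 held 0 matches, and 1 of the Lef1 promoters, an internal one, held 2. These are matches of letters and not measured binding sites.

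In whole EBs, where the UMIs of all cells of a library were summed, 4 of the 10 Wnt genes were higher and 2 were lower in LSD1 KO than in WT. Wnt3, Wnt8a, Sfrp2 and Sp5 rose, Dkk1 and Wnt5a fell, and Axin2, Lef1, Sfrp1 and Wnt6 did not pass the threshold of an adjusted p under 0.05 (edgeR's quasi-likelihood test, n = 2 libraries per genotype). Among all 16953 genes tested, 22.6% were called higher and 21.6% lower. The 6 called of 10 are thus read against a background in which change was widespread. In a sum over whole EBs, fewer cells of a type and less RNA per cell cannot be told apart. Values for whole EBs and in every test are CPM with edgeR's TMM scaling.

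**Figure D1:**
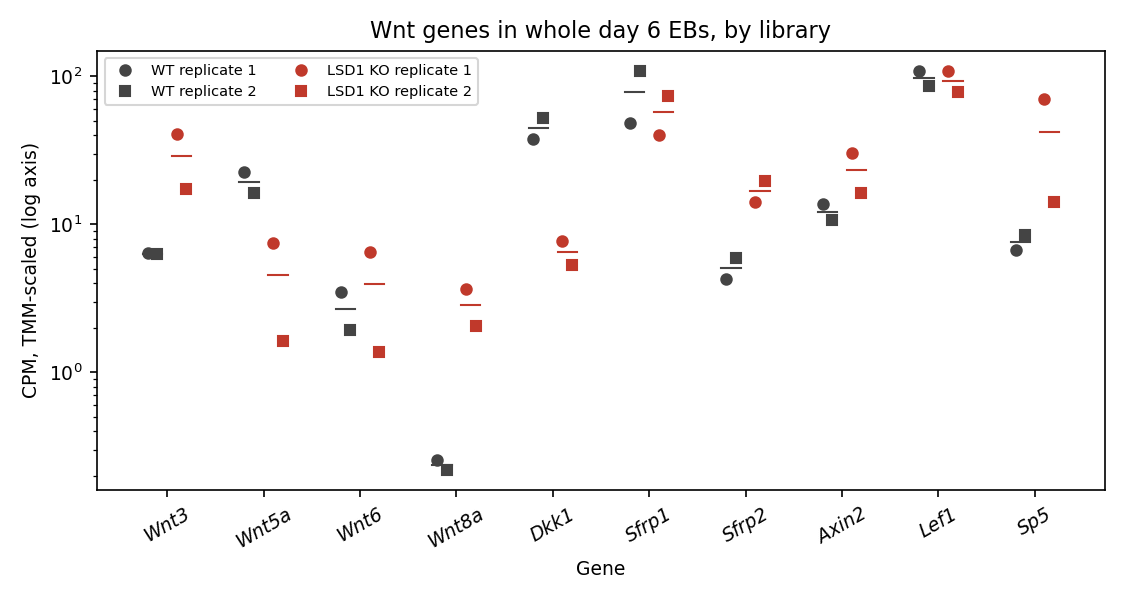
Level of each Wnt gene in whole day 6 EBs, 1 point per library on a log axis of TMM-scaled CPM, with bars at the mean of the 2 libraries of a genotype. Wnt3, Wnt8a and Sfrp2 sit higher and Dkk1 and Wnt5a lower in both LSD1 KO libraries, while the LSD1 KO libraries lie far apart for Sp5 (69.7 and 14.2 CPM).

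Among the ligands, Wnt3 (mm9 chr11:103635464-103679271, plus strand) was at 6.41 and 6.26 CPM in WT and at 40.8 and 17.4 CPM in LSD1 KO. The lower LSD1 KO library lay above both WT libraries, and the log2 fold change was 2.20 (standard error 0.40, edgeR adjusted p = 0.00893). Wnt8a was nearly absent from WT, with 16 and 14 UMIs or 0.26 and 0.22 CPM, and it was at 3.65 and 2.05 CPM in LSD1 KO. Its log2 fold change was 3.57 (standard error 0.40, edgeR adjusted p = 0.00231). Wnt8a thus remained a low transcript in LSD1 KO.

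Wnt5a (mm9 chr14:29317936-29340633, plus strand), a ligand known mostly for signalling that does not use β-catenin, was at 22.5 and 16.3 CPM in WT and at 7.52 and 1.62 CPM in LSD1 KO. It fell by 2.08 on the log2 scale (standard error 0.66, edgeR adjusted p = 0.0489), and the genotypes did not overlap. The call was lost without WT1 (adjusted p = 0.147), without WT2 (adjusted p = 0.0801), with DESeq2 (adjusted p = 0.0801) and with plain library totals (adjusted p = 0.0693). Wnt6 (mm9 chr1:74818466-74831893, plus strand) was at 3.47 and 1.93 CPM in WT and at 6.55 and 1.38 CPM in LSD1 KO, so that the WT libraries lay between the LSD1 KO libraries. Its log2 fold change of 0.56 (standard error 0.71, edgeR adjusted p = 0.552) became −0.97 without KO1 and 1.28 (adjusted p = 0.0353) without KO2.

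Of the antagonists, Dkk1 (mm9 chr19:30620353-30624155, minus strand) fell from 37.8 and 52.2 CPM in WT to 7.78 and 5.29 CPM in LSD1 KO. The log2 fold change was −2.78 (standard error 0.25, edgeR adjusted p = 0.00122). Sfrp2 (mm9 chr3:83570243-83578238, plus strand) went the other way, from 4.26 and 5.93 CPM in WT to 14.2 and 19.6 CPM in LSD1 KO, with a log2 fold change of 1.73 (standard error 0.24, edgeR adjusted p = 0.00409). Antagonists thus moved in both directions. Sfrp1 (mm9 chr8:24521974-24560104, plus strand) was at 48.0 and 108 CPM in WT and at 40.3 and 73.6 CPM in LSD1 KO, with overlapping genotypes and a log2 fold change of −0.45 (standard error 0.44, edgeR adjusted p = 0.434). Without WT2 the sign of the Sfrp1 difference turned, to 0.25.

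Among the genes that read out the signal, Sp5 (mm9 chr2:70312980-70315786, plus strand), a transcription factor gene switched on directly by β-catenin, was at 6.75 and 8.51 CPM in WT and at 69.7 and 14.2 CPM in LSD1 KO. Both LSD1 KO libraries were above both WT libraries but stood apart from each other, with a ratio of 5.01 in plain CPM, before TMM scaling (95% interval 4.67 to 5.38, counting error only). The log2 fold change was 2.46 (standard error 0.72, edgeR adjusted p = 0.0388). The call was lost without WT1 (adjusted p = 0.146), without WT2 (adjusted p = 0.106) and when streak-like cells were left out (adjusted p = 0.0518), where the log2 fold change was 2.15.

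Axin2 (mm9 chr11:108781663-108812097, plus strand), a scaffold of the β-catenin destruction complex that is itself a target, was at 13.6 and 10.7 CPM in WT and at 30.2 and 16.2 CPM in LSD1 KO. The genotypes did not overlap, yet the log2 fold change of 0.93 (standard error 0.31) did not pass (edgeR adjusted p = 0.0562). It passed with DESeq2 (adjusted p = 0.00847) and without KO2 (edgeR adjusted p = 0.00277). Lef1 (mm9 chr3:130813389-130927274, plus strand), a DNA-binding partner of β-catenin, was at 109 and 85.9 CPM in WT and at 108 and 78.3 CPM in LSD1 KO. Its log2 fold change was −0.07 (standard error 0.19, edgeR adjusted p = 0.798). Plain library totals moved it to 0.063, but they also moved the median of all genes to 0.13. Wnt3, Wnt8a, Dkk1 and Sfrp2 were called in whole EBs under every alternative run.

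Within gates the levels were measured as plain CPM of the UMIs of a gate in a library, without a test. In WT, Wnt5a was highest in the lateral mesoderm-like gate, at 59.9 CPM in WT1 (95% interval 55.8 to 64.1) and 45.4 CPM in WT2 (41.2 to 50.02). That gate held 58.5% and 40.0% of all Wnt5a UMIs of the WT libraries with 18.2% and 12.8% of their cells, and LSD1 KO libraries had 0 such cells. Wnt5a followed in the streak-like gate, at 31.2 and 29.7 CPM, and in the mesenchyme-like gate, at 24.4 and 18.7 CPM. It was at 2.19 and 2.39 CPM in the Nefm Pou3f1 gate, which was the largest gate in LSD1 KO.

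Dkk1 in WT was highest in the Shh Six3 anterior gate, at 75.4 and 124 CPM, and reached 51.7 and 85.0 CPM in the Krt7 Cldn4 epithelial gate. Both gates had fewer than 30 cells in each LSD1 KO library. The levels in the streak-like gate (44.8 and 58.2 CPM), the visceral endoderm-like gate (53.1 and 28.1 CPM) and the epithelial gate overlapped between libraries. In the Nefm Pou3f1 gate Dkk1 was at 4.81 and 3.58 CPM. In the LSD1 KO ESC-like gate it was at 0.19 and 0.46 CPM. WT cells of the ESC-like gate could be described in replicate 2 only, where Dkk1 was at 9.35 CPM, since replicate 1 held 22 of them. The name of the Shh Six3 anterior gate rests on its markers alone. T, the gene of the mesoderm factor Brachyury, was highest there among WT gates, at a mean of 191 CPM. Its mean in the WT streak-like gate was 24.1 CPM.

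Sfrp1 in WT was highest in the mesenchyme-like gate, at 382 and 389 CPM, far above the Nefm Pou3f1 gate (149 and 174 CPM), the Shh Six3 anterior gate (120 and 114 CPM) and the streak-like gate (96.9 and 190 CPM). The streak-like values spanned those of the other two, which did not overlap each other. In the endothelial-like gate Sfrp1 was at 1.47 CPM in WT1 and had 0 UMIs in WT2, where 3 UMIs would have been 5.74 CPM. Sfrp2 in WT was highest in the Nefm Pou3f1 gate, at 13.1 and 16.4 CPM, and lay between 0 and 10.2 CPM in the other WT gates. In LSD1 KO, Sfrp2 differed little between gates, with 13.9 and 20.5 CPM in the Nefm Pou3f1 gate, 14.9 and 13.9 CPM in the streak-like gate and 18.6 and 16.6 CPM in the ESC-like gate. These LSD1 KO gates overlapped in markers. The median ESC-like cell also showed 3 of the 6 Nefm Pou3f1 markers. Of the LSD1 KO ESC-like cells, 162 of 393 and 259 of 411 showed 3 or more markers of a further gate.

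Wnt3 in WT lay at 16.01 and 13.0 CPM in the streak-like gate and at 11.5 and 13.2 CPM in the lateral mesoderm-like gate, and the intervals of these gates overlapped. In LSD1 KO the streak-like gate had 70.6 and 59.1 CPM, above the Nefm Pou3f1 gate (41.2 and 19.9 CPM) and the ESC-like gate (16.1 and 6.65 CPM) in both libraries. Lef1 in WT was highest in the mesenchyme-like gate (252 and 158 CPM) and the lateral mesoderm-like gate (177 and 129 CPM), which overlapped. Wnt6 and Wnt8a were low in every gate. In WT both were highest in the Nefm Pou3f1 gate, Wnt6 at 6.56 and 3.58 CPM and Wnt8a at 3.50 and 1.49 CPM, and in LSD1 KO Wnt6 reached 12.0 and 7.64 CPM in the streak-like gate.

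Axin2 in WT stayed between 3.92 and 19.3 CPM over all gates, and in LSD1 KO it was highest in the streak-like gate, at 58.0 and 41.7 CPM.

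**Figure D2:**
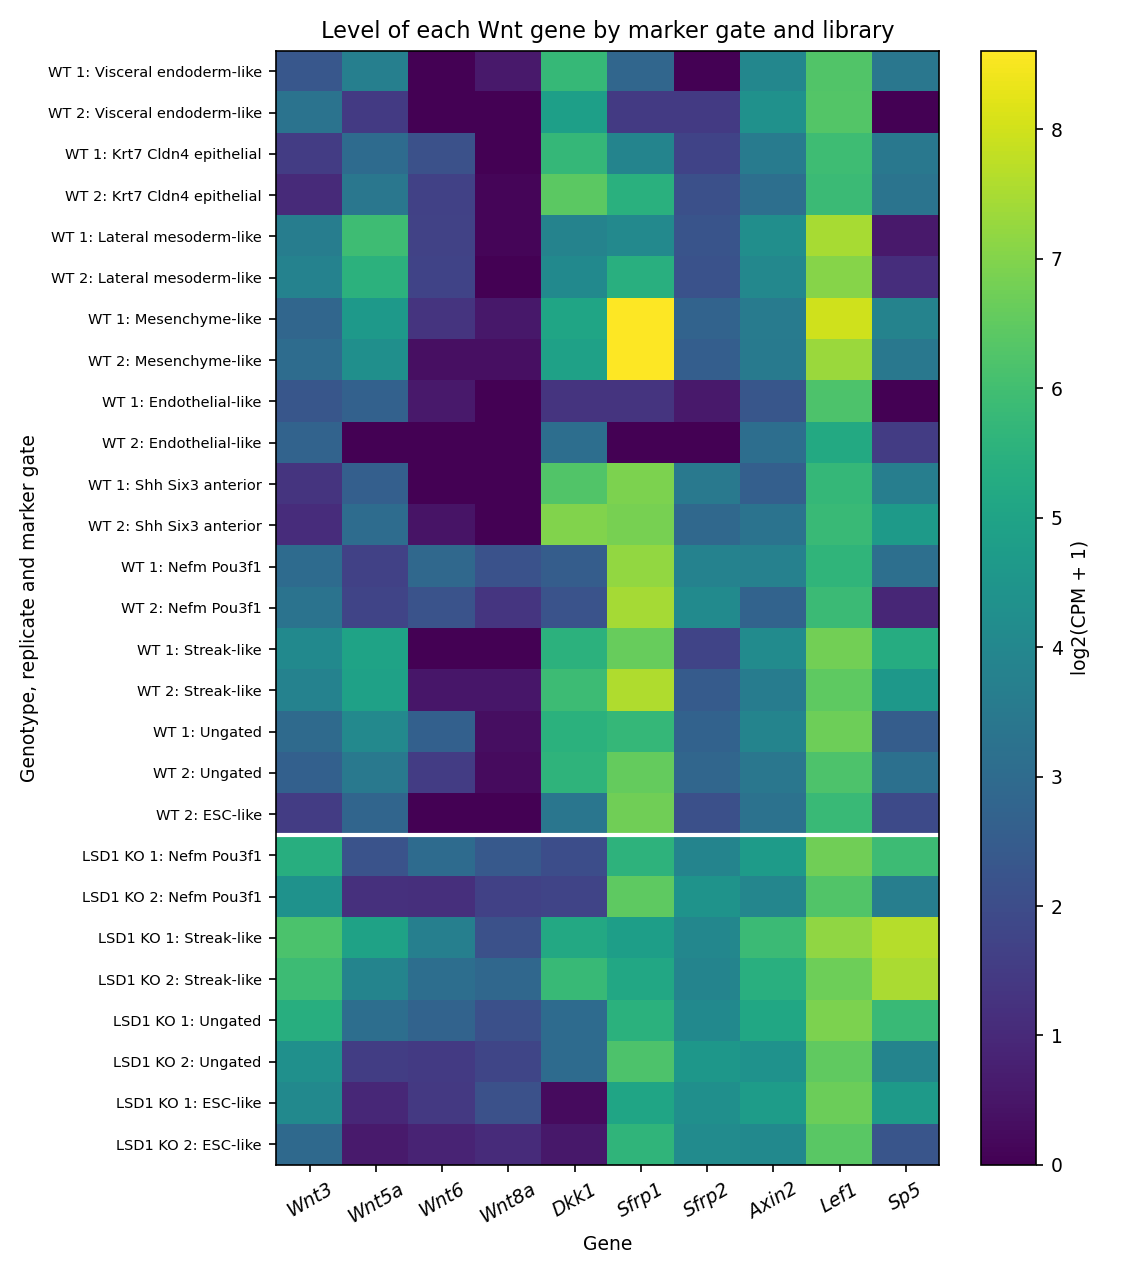
Level of each Wnt gene as log2(CPM + 1), from plain CPM, in every gate with at least 30 cells in a library and in ungated cells, with WT rows above and LSD1 KO rows below the white line. In WT, Sfrp1 is brightest in the mesenchyme-like rows (382 and 389 CPM), Wnt5a in the lateral mesoderm-like rows and Dkk1 in the Shh Six3 anterior rows, and Sp5 is brightest in the LSD1 KO streak-like rows (199 and 181 CPM).

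Sp5 was alike between the LSD1 KO libraries in 1 gate and unlike elsewhere. In the streak-like gate the LSD1 KO libraries had 199 and 181 CPM of Sp5, a ratio of 1.10 (95% interval 0.961 to 1.25, counting error only). Outside it they stood apart, with 58.4 and 11.8 CPM in the Nefm Pou3f1 gate (ratio 4.94, 4.44 to 5.50), 24.8 and 3.83 CPM in the ESC-like gate and 55.7 and 13.6 CPM in ungated cells. The streak-like gate held 36.0% and 28.2% of the Sp5 UMIs of the LSD1 KO libraries. The target T was split in the same way between the LSD1 KO libraries, at 530 and 429 CPM in the streak-like gate (ratio 1.23, 1.13 to 1.34) and at 243 and 51.9 CPM in the Nefm Pou3f1 gate.

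Free RNA, taken from barcodes of 10 to 100 UMIs, held Sp5 at 39.1 and 44.7 CPM in LSD1 KO, from 19 and 7 UMIs, and at 9.53 and 6.89 CPM in WT, from 1 and 17 UMIs. The ratio of the LSD1 KO libraries was 0.874 there, with a wide counting interval of 0.352 to 2.46. After each cell was thinned to 1000 UMIs, Sp5 was seen in 16.9% (95% exact binomial interval 14.1 to 20.1) and 13.3% (5.94 to 24.6) of LSD1 KO streak-like cells. In WT streak-like cells the shares were 6.45% (1.79 to 15.7) and 0.472% (0.0119 to 2.60), the latter from 1 cell of 212. At 3000 UMIs the WT shares were 8.33% (2.76 to 18.4) and 6.64% (3.67 to 10.9), and those of LSD1 KO were 40.7% (36.8 to 44.7) and 36.2% (24.0 to 49.9). In lateral mesoderm-like WT cells, where the Sp5 level was only 0.51 and 1.21 CPM, the shares at 1000 UMIs were 0.125% and 0.458%. Without thinning, the LSD1 KO shares were 77.7% and 73.3% at medians of 13575.5 and 21738.5 UMIs per cell, and the WT shares were 27.4% and 17.9% at 18288.5 and 10138 UMIs. The lateral mesoderm-like cells had medians of 14817 and 9416.5 UMIs. At 1000 UMIs Sfrp1 was seen in 32.7% and 30.7% of WT mesenchyme-like cells and in 0 of 89 and 0 of 41 endothelial-like cells, for which the exact intervals reach 4.06% and 8.60%.

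Within the streak-like gate, 5 of the 9 Wnt genes tested were higher and 1 was lower in LSD1 KO, 1 of the 5 being Wnt6 with almost no UMIs in WT, beside 14.9% higher and 14.8% lower among all 10705 genes tested there. Sp5 was at 41.2 and 25.1 CPM in WT and at 187 and 174 CPM in LSD1 KO, a log2 fold change of 2.53 (standard error 0.18, edgeR adjusted p = 1.0e-07). Axin2 went from 17.7 and 12.3 CPM to 54.6 and 39.9 CPM, a log2 fold change of 1.79 (standard error 0.25, edgeR adjusted p = 5.61e-05). Wnt3 went from 16.8 and 14.2 CPM to 66.4 and 56.6 CPM, a log2 fold change of 2.05 (standard error 0.21, edgeR adjusted p = 2.76e-06). For all 3 genes both LSD1 KO libraries lay above both WT libraries, and the calls held under every alternative run.

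Sfrp1 in the streak-like gate went from 102 and 207 CPM in WT down to 25.9 and 33.3 CPM in LSD1 KO, a log2 fold change of −2.52 (standard error 0.25, edgeR adjusted p = 2.43e-06). Sfrp2 went up, from 2.52 and 5.02 CPM to 14.0 and 13.3 CPM, a log2 fold change of 1.74 (standard error 0.39, edgeR adjusted p = 0.00328), on 3 and 11 UMIs in WT. That call was lost without KO1 (adjusted p = 0.0730) and with DESeq2 (adjusted p = 0.0682). Dkk1, at 47.1 and 63.5 CPM in WT and 33.2 and 52.6 CPM in LSD1 KO, overlapped between genotypes and did not pass (log2 fold change −0.54, standard error 0.22, edgeR adjusted p = 0.0733). It passed without WT1 (−0.73, adjusted p = 0.00238) and without KO2 (−0.77, adjusted p = 0.00558). Wnt5a and Lef1 did not pass, with log2 fold changes of −0.44 and 0.22, though Wnt5a did without KO1 (−1.28, adjusted p = 0.00764).

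Wnt6 was called higher in the streak-like gate, but WT held 0 UMIs in replicate 1 and 1 in replicate 2. LSD1 KO held 107 and 11 UMIs, or 11.3 and 7.32 CPM. The ratio of the summed levels was 41.4 with a counting interval of 7.29 to 1649, and no size can be read from it beyond that interval. Wnt6 entered the test there only through its level in LSD1 KO. Wnt8a had too few UMIs for the test, with 1 in WT and 39 in LSD1 KO, a ratio of 13.7 (counting interval 2.32 to 554).

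Within the Nefm Pou3f1 gate, Wnt3 and Lef1 were higher and Sfrp1 was lower among the 10 genes, beside 10.0% higher and 7.75% lower among 14685 genes tested. Wnt3 was at 7.01 and 9.09 CPM in WT and at 40.2 and 19.4 CPM in LSD1 KO (log2 fold change 1.87, standard error 0.43, edgeR adjusted p = 0.0259). Lef1 was at 48.6 and 60.2 CPM in WT and at 104 and 74.0 CPM in LSD1 KO (0.70, standard error 0.19, edgeR adjusted p = 0.0426). Sfrp1 was at 149 and 182 CPM in WT and at 45.3 and 85.7 CPM in LSD1 KO (−1.34, standard error 0.28, edgeR adjusted p = 0.0169). For each of the 3 the genotypes did not overlap. None of the 3 calls held without WT1 or without WT2. The adjusted p was then 0.183 and 0.169 for Wnt3, 0.233 and 0.135 for Lef1 and 0.0971 and 0.155 for Sfrp1, and Lef1 was also lost without KO1 (0.0907).

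Sp5 in the Nefm Pou3f1 gate was at 7.88 and 0.94 CPM in WT and at 57.0 and 11.5 CPM in LSD1 KO, a log2 fold change of 3.13 that did not pass (standard error 1.08, edgeR adjusted p = 0.0860). It passed without either LSD1 KO library, at 1.55 without replicate 1 (adjusted p = 0.0237) and 3.87 without replicate 2 (adjusted p = 5.82e-10). Axin2 likewise did not pass (1.12, standard error 0.40, edgeR adjusted p = 0.0971) but did without KO2 (1.47, adjusted p = 0.000422). Wnt5a, Wnt6, Wnt8a, Dkk1 and Sfrp2 did not pass, with log2 fold changes between −0.65 and 0.41. For Dkk1, which fell in whole EBs, the Nefm Pou3f1 gate had 4.82 and 3.76 CPM in WT and 3.01 and 2.36 CPM in LSD1 KO (−0.65, standard error 0.36, edgeR adjusted p = 0.2501).

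In ungated cells Wnt3, Wnt8a, Sfrp2, Axin2 and Sp5 were higher and Wnt5a and Dkk1 were lower, beside 19.6% higher and 18.4% lower among 15204 genes. Dkk1 was at 44.3 and 52.6 CPM in WT and at 6.61 and 6.78 CPM in LSD1 KO there, a log2 fold change of −2.85 (standard error 0.16). Axin2 was at 14.0 and 10.7 CPM in WT and at 31.7 and 19.2 CPM in LSD1 KO, a log2 fold change of 1.05 (standard error 0.24, edgeR adjusted p = 0.00765). Wnt5a was lost without WT1 (adjusted p = 0.121), Sp5 without WT1 (adjusted p = 0.0870) and Axin2 without WT2 (adjusted p = 0.0643). Sfrp1 passed without WT1 (−0.92, adjusted p = 0.0322) and without KO2 (−0.93, adjusted p = 0.00209), and Wnt6 without KO1 (−1.08, adjusted p = 0.0401). Ungated cells are a mixture, so their values cannot be placed in a cell type.

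**Figure D3:**
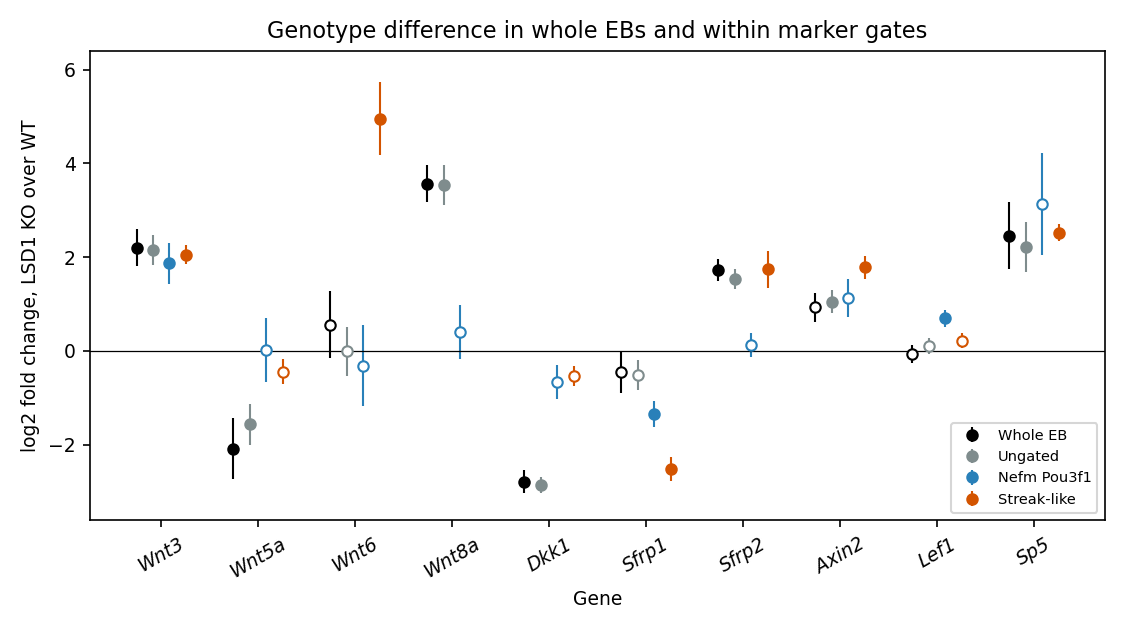
Log2 fold change of each Wnt gene, LSD1 KO over WT, with its standard error, in whole EBs, ungated cells and the 2 gates tested, where filled points passed an edgeR adjusted p of 0.05 and open points did not. Wnt3 is near 2 in all 4 sets. Dkk1 is at −2.78 in whole EBs and −2.85 in ungated cells, and lower without a call in the streak-like and Nefm Pou3f1 gates (−0.54 and −0.65). Wnt6 in the streak-like gate rests on 1 UMI in WT, and Wnt8a has no point there because it was not tested.

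The genotype differences of the 2 gates were compared in 1 edgeR fit with each library as a block, a test added after the data had been seen. Of 12017 genes tested, 9.73% were called. Wnt6, Sfrp1 and Sfrp2 were among them, with differences of the log2 fold change (streak-like minus Nefm Pou3f1) of 5.11 (standard error 1.14, edgeR adjusted p = 0.00549), −0.89 (standard error 0.20, adjusted p = 0.00677) and 1.79 (standard error 0.44, adjusted p = 0.0102). The Sfrp1 difference was lost without WT2 (−0.40, adjusted p = 0.316) and the Sfrp2 difference without KO1 (1.34, adjusted p = 0.202). The Wnt6 value rests on a WT arm of 0 and 1 UMIs in the streak-like gate, ranged from 4.16 to 10.69 when 1 library was left out, and is not a measured size. For Wnt3, Axin2 and Dkk1 the differences were 0.11 (standard error 0.39), 0.50 (standard error 0.33) and 0.13 (standard error 0.44), which did not pass. For Sp5 the value was −0.55 (standard error 0.92), but it passed without WT1 (−2.18, adjusted p = 0.0109) and without KO2 (−1.37, adjusted p = 0.00339). For Lef1 it was −0.52 (standard error 0.16, edgeR adjusted p = 0.0527), and −0.79 (adjusted p = 0.00514) without WT2.

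The rest of the pathway was read from 81 listed genes, of which 76 could be tested in whole EBs, where 15 were higher and 26 lower, beside 22.6% higher and 21.6% lower of all genes. The median log2 fold change over these 76 was −0.24, against −0.00 over all genes tested. Genes under 10 CPM, and Bcl9 and Gsk3b, are named below only to account for small counts, and were chosen after their values were seen. Of 12 other ligands tested, Wnt5b and Wnt3a were higher and Wnt2 and Wnt7b lower, no more in either direction than the share of all genes. Wnt3a entered the test only through LSD1 KO, and Wnt7b only through WT. Wnt5b, a close relative of Wnt5a, was at 11.2 and 12.9 CPM in WT and at 31.0 and 17.8 CPM in LSD1 KO (log2 fold change 1.02, standard error 0.27, edgeR adjusted p = 0.0289), whereas Wnt3a, Wnt2 and Wnt7b stayed under 6 CPM in every library. The Wnt5b and Wnt3a calls were lost without WT1, without WT2 and without KO1, where 0 other ligands were higher.

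Both genes of ligand release fell in whole EBs, where 21.6% of all genes were called lower. Porcn, which attaches the lipid that ligands need, was at 15.6 and 14.7 CPM in WT and at 5.13 and 3.85 CPM in LSD1 KO (−1.75, standard error 0.18, edgeR adjusted p = 0.00177). Wls, which carries ligands to the cell surface, was at 242 and 217 CPM in WT and at 92.7 and 74.9 CPM in LSD1 KO (−1.45, standard error 0.13, edgeR adjusted p = 0.00133). Both were also lower within the streak-like gate (−1.27 and −1.23), though the Porcn call was lost without KO1. Within the Nefm Pou3f1 gate Wls was lower (−0.89, edgeR adjusted p = 0.0422), but Porcn did not pass (−0.03, edgeR adjusted p = 0.962). Porcn there was at 3.50 and 4.70 CPM in WT and at 4.70 and 3.45 CPM in LSD1 KO.

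Of 16 receptors and co-receptors, 10 were lower and 2 higher, beside 21.6% and 22.6% of all genes. Their median log2 fold change was −0.67. Fzd5 fell from 19.6 and 32.0 CPM to 5.71 and 6.30 CPM, and Fzd7 from 33.9 and 32.1 CPM to 12.5 and 13.0 CPM. Fzd5 (−2.37) and Ror1 (−1.38) were also lower within the streak-like gate, where Fzd7 did not pass (−0.47, edgeR adjusted p = 0.185). Ror1 (−2.31) and Fzd7 (−1.49) were lower within the Nefm Pou3f1 gate. In whole EBs Fzd10 rose from 1.82 and 2.09 CPM to 21.9 and 9.71 CPM (3.02, standard error 0.42, edgeR adjusted p = 0.00410), and the second that rose, Fzd9, stayed under 1 CPM. Thus most receptors went down while Fzd10 went up, and Fzd10 was also higher within the streak-like gate (2.39) and the Nefm Pou3f1 gate (1.90), though in the latter not without WT1 (adjusted p = 0.212) or WT2 (0.205).

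Of 9 genes of the R-spondin branch, whose secreted proteins raise receptor levels at the surface, 2 were higher and 2 lower. This is close to the 22.6% higher and 21.6% lower of all genes. Lgr4, an R-spondin receptor, rose from 48.0 and 42.9 CPM to 128 and 132 CPM (1.52, standard error 0.09, edgeR adjusted p = 0.000617). Lgr5, its relative, fell from 31.2 and 27.97 CPM to 5.57 and 2.09 CPM (−2.94, standard error 0.44, edgeR adjusted p = 0.00496). The others called were Rspo1 (higher) and Rnf43 (lower), both under 10 CPM. Of 11 other antagonists, 4 were lower and 3 higher, beside 21.6% and 22.6% of all genes. Frzb, a secreted Wnt-binding protein, fell from 30.3 and 38.2 CPM to 8.24 and 4.33 CPM, and Cer1, an antagonist of Nodal, BMP and Wnt ligands, from 14.0 and 23.4 CPM to 1.17 and 0.35 CPM. Sfrp5 and Wif1 also fell, and Dkk2, Sfrp4 and Kremen2 rose, all under 2 CPM in every library. Sfrp4, at 0.14 and 0.09 CPM in WT, entered the test only through LSD1 KO.

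Of 14 intracellular transducers, 5 were lower (Bcl9l, Dvl3, Pygo1, Bcl9 and Gsk3b) and 0 higher, beside 21.6% and 22.6% of all genes. The largest fall was that of Bcl9l, a co-activator of β-catenin, from 27.9 and 23.0 CPM to 11.8 and 9.58 CPM. The transcript of β-catenin itself, Ctnnb1, named here after its value was seen, was at 233 and 256 CPM in WT and at 229 and 243 CPM in LSD1 KO (−0.05, standard error 0.10, edgeR adjusted p = 0.693). Its sign was positive without WT2 (0.022), and plain library totals moved it to 0.082, less than the shift in the median of all genes given for Lef1. The DNA-binding factors split, beside 22.6% higher and 21.6% lower of all genes. Tcf7l2 fell from 343 and 317 CPM to 66.7 and 60.2 CPM (−2.38, standard error 0.10, edgeR adjusted p = 0.000403), and Tcf7 rose from 18.6 and 18.1 CPM to 36.0 and 34.5 CPM (0.94, standard error 0.09, edgeR adjusted p = 0.00166). Tcf7l2 was lower and Tcf7 higher also within the streak-like gate (−2.36 and 1.13) and the Nefm Pou3f1 gate (−0.95 and 1.07), Tcf7 in the latter not without WT2 (adjusted p = 0.0512).

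**Figure D4:**
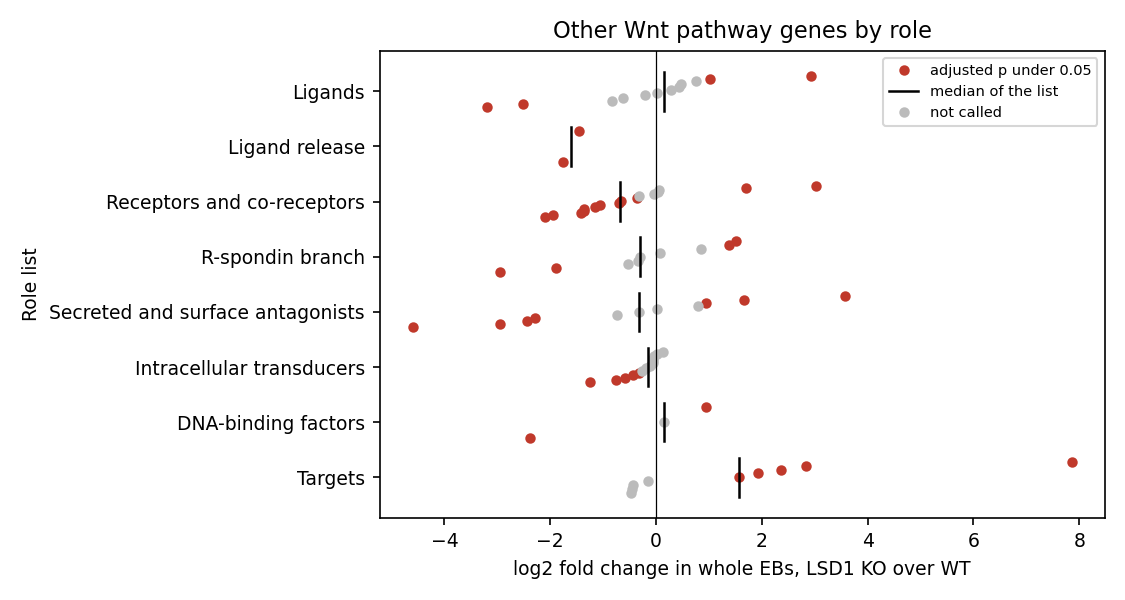
Log2 fold change in whole EBs, LSD1 KO over WT, of the 76 other Wnt pathway genes tested, 1 point per gene in rows by role, red where the edgeR adjusted p was under 0.05, with a black bar at the median of each list. Receptors lie mostly left of 0 (median −0.67, 10 lower and 2 higher), and the 5 called targets lie to the right, with the 4 other targets just left of 0. Of the called targets, Cdx1 and Cdx4 entered the test only through LSD1 KO. Among all genes tested, 22.6% were called higher and 21.6% lower.

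Of 9 other targets tested in whole EBs, 5 were higher and 0 lower, beside 22.6% and 21.6% of all genes. Their median log2 fold change was 1.58. Ccnd1, which drives entry into the cell cycle, rose from 40.3 and 41.6 CPM to 125 and 119 CPM (1.58, standard error 0.08, edgeR adjusted p = 0.000506). T went from 22.8 and 35.9 CPM to 253 and 49.2 CPM (2.36, standard error 0.74, edgeR adjusted p = 0.0487), a call not kept without WT1 (0.178), WT2 (0.103) or KO1 (0.0588). Cdx1 and Cdx4, homeobox genes of the posterior embryo, and Nkd2, an inhibitor of Dishevelled, were also higher, all at under 6 CPM. Cdx1 and Cdx4, with at most 0.016 and 0.063 CPM in WT, entered the test only through LSD1 KO. Without KO1, 3 of the targets were higher and 2 lower.

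Within the streak-like gate, 5 of 6 other targets tested were higher and 0 lower. T was at 26.9 and 24.7 CPM in WT and at 498 and 411 CPM in LSD1 KO (4.16, standard error 0.16, edgeR adjusted p = 1.78e-10). The WT cells of this gate, few of which showed Mixl1, thus had T near its level in whole WT EBs (22.8 and 35.9 CPM). The part of this marker difference in the rise was not tested. Cdx2, another posterior homeobox gene, went from 1.68 and 2.74 CPM to 24.9 and 23.3 CPM (3.35, standard error 0.39, edgeR adjusted p = 1.04e-05). Ccnd1, Nkd1 and Cdx1 made up the rest, but Cdx1 was at 0 CPM in both WT libraries (13.4 and 5.99 CPM in LSD1 KO) and entered the test only through LSD1 KO. Rspo3 also rose there, from 135 and 111 CPM to 246 and 178 CPM (0.83, standard error 0.16, edgeR adjusted p = 0.00100). In that gate 11 of the 48 listed genes tested were higher and 14 lower, beside 14.9% and 14.8% of all genes. In the Nefm Pou3f1 gate 5 of 62 were higher and 8 lower, beside 10.0% and 7.75% of all genes. Of the targets tested there, only T was called (4.70, standard error 0.96, edgeR adjusted p = 0.0167). Ccnd1 (0.41, edgeR adjusted p = 0.0907), Cdx1, Cdx2, Nkd1, Nkd2 and Myc did not pass. In ungated cells T, Ccnd1, Cdx1 and Nkd2 were higher and Myc was lower (−0.60, standard error 0.18, edgeR adjusted p = 0.0248).

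The genes whose levels followed each Wnt gene most closely were found over 23 gate and library sums and 11420 genes, by Pearson's r of log2(CPM + 1). These sums share libraries and depth, so r is given as a description. Sfrp2 had the closest follower, Magi2 (r = 0.962), with Hdac9 (0.947) and Gria4 (0.942). Dkk1 was followed by the endoderm and midline factor Foxa2 (0.898), a marker of the epithelial gate, then Egflam (0.889) and Hs3st3b1 (0.884). Sfrp1 was followed by the Wnt5a receptor Ror1 (0.907), Ndufa11 (0.895) and Ndufa7 (0.882).

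Sp5 was followed by Psme2 (0.848), Fgf8 (0.846), a marker of the streak-like gate, and T (0.838). Axin2 was followed by Hoxb1 (0.828), Nup62cl (0.827) and Vrtn (0.819), and Lef1 by Crabp1 (0.852), Pdgfra (0.849) and Clmp (0.843). Among the ligands, Wnt8a was followed by Vgf (0.906), Fam131b (0.904) and Znhit3 (0.900), Wnt3 by Psma5 (0.869) and Atp5g3 (0.845), Wnt5a by Ptms (0.869), Cfc1 (0.849) and Plxna2 (0.828), and Wnt6, the least closely, by Adcy2 (0.797), Gpx1 (0.771) and Rtl8b (0.769).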

How the data were processed

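Single-cell RNA-seq of day 6 EBs was measured in 2 WT and 2 LSD1 KO libraries. The authors counted UMIs with Cell Ranger 7.1.0 and analysed them with Seurat 4.3.0, on mm9 per the submitters' processing notes, and the deposited values are raw UMI counts that include barcodes of empty droplets. The thresholds the study states were applied (500 UMIs and 500 genes per barcode, 10 cells per gene). The matrices hold 0 mitochondrial genes, and doublets were neither called nor removed. Free RNA was read from barcodes of 10 to 100 UMIs.

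Counts were summed per library, over all cells or within a gate of at least 30 cells, filtered with filterByExpr and tested with edgeR 4.0.16 (quasi-likelihood test, TMM factors, Benjamini-Hochberg over all genes tested) in R 4.3.3, with DESeq2 1.42.0 as an alternative. The step was tested on simulated counts. Levels and shares were computed in Python 3.11.15 with numpy 2.4.6, scipy 1.17.1 and pandas 2.3.3. Exact Poisson and binomial intervals are at 95% and cover counting error only. The study calls the replicates biological, and p-values measure the spread between these libraries. Totals of 72285943 to 75406512 UMIs set the depth. Other alternatives changed the scaling, gene filter, cell filter, gate rule and thinning, added the replicate number as a block or left out a library. Leaving out streak-like cells, leaving out cells with 3 or more markers of a further gate and the comparison of gates were added after the data were seen.

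The genes named were the 10 Wnt genes, Kdm1a, up to 2 rises and 2 falls per role list among called genes with at least 10 CPM in the higher genotype, and 3 followers per Wnt gene, of which 1 is not reported here. The genes, lists and markers were chosen with earlier results of these data known. Positions are from GENCODE M1 on mm9.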

Additional observations from a re-analysis of the deposited data

Results flagged for a closer look

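For 3 genes the genotype difference itself differed between the streak-like and the Nefm Pou3f1 gate (edgeR, each library as a block). The log2 difference between gates was 5.11 for Wnt6, which is not a measured size since WT held 0 and 1 UMIs in the streak-like gate and the value ranged from 4.16 to 10.69 when 1 library was left out, −0.89 for Sfrp1, lower in LSD1 KO in both gates, and 1.79 for Sfrp2, with log2 fold changes of 1.74 in the streak-like and 0.13 in the Nefm Pou3f1 gate. The Sfrp1 difference was −0.40 (adjusted p = 0.316) without WT2, and the Sfrp2 difference 1.34 (adjusted p = 0.202) without KO1. The gates held different marker mixtures in the 2 genotypes, and the part of this was not tested.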

How the results depend on the processing

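Over the Wnt genes in the 4 sets and the 3 differences between gates, 405 values kept their direction and side of the threshold, 32 lost the call, 21 gained one and 28 changed sign, and no called difference changed sign. Signs changed in whole EBs for Wnt6 (−0.97 to 1.28 when a library was left out), Sfrp1 (−0.95 to 0.25) and Lef1 (−0.31 to 0.15, and 0.063 with library totals). In the Nefm Pou3f1 gate they changed for Wnt5a (−0.058 to 0.58 when a library was left out, −0.15 with the replicate block, −0.085 with 2 markers, −0.085 without cells of 2 gates), Wnt6 (−2.03 to 0.45, and 2.00 without cells of 2 gates), Wnt8a (−0.17 to 1.03), Sfrp2 (−0.17 to 0.38, and −0.048 without cells of 2 gates) and Dkk1 (0.22 without cells of 2 gates). In the streak-like gate they changed for Wnt5a with 4 markers (0.40) and Lef1 (−0.071 to 0.38 when a library was left out). In ungated cells they changed for Wnt6 (−1.08 to 0.76 when a library was left out, 0.135 with library totals, 0.23 with 2 and 0.45 with 4 markers), Sfrp1 (−0.93 to 0.081) and Lef1 (−0.094 to 0.31).

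Wnt genes called in the Nefm Pou3f1 gate, 3 in the report, were 1 with no gene filter, 0 with 4 markers, 1 without cells of 2 gates and 0 to 5 without a library. Its pathway genes called, 13, were 8 with 4 markers and 4 to 18 without a library. All genes called there, 2611, were 1158 with 4 markers and 577 to 2172 without a library. In whole EBs 7500 genes were called, and 4999 to 6666 without a library. In the streak-like gate 3175 were called, 1611 with DESeq2, 2050 without cells of 2 gates and 1870 to 3263 without a library. With library totals the median log2 fold change of all genes moved to 0.13 in whole EBs, 0.19 in the streak-like gate and 0.16 in ungated cells, and calls split 4839 higher and 2583 lower, 2417 and 975, and 3749 and 1700. The labels share only replicate numbers, and the main tests assumed no pairing. In whole EBs the correlation of deviations was 0.158. It is 1 value, since 2 libraries deviate from their mean equally and oppositely, so it cannot settle pairing. It was not computed within gates. With the replicate block, the Nefm Pou3f1 gate had 5 Wnt genes, 22 pathway genes and 4204 genes called, Sp5 in whole EBs was lost (2.06, adjusted p = 0.0645), and 5 calls were gained. The cause of these changes was not tested.

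The mean Sfrp1 level in WT mesenchyme-like cells, 385 CPM, was 344 with 2 markers, 458 with 4 and 429 as a mean over cells, and Wnt6 in LSD1 KO streak-like cells, 9.81 CPM, was 13.6 as a mean over cells. Shares rose with depth, as fewer UMIs were removed: Sp5 in LSD1 KO streak-like cells to 38.5% at 3000 UMIs and 75.5% unthinned, Sfrp1 in mesenchyme-like cells to 59.6% and 90.8%, and Wnt5a in lateral mesoderm-like cells to 13.8% and 39.3%. Depth limits Wnt6 and Wnt8a, and 2 libraries per genotype limit all tests.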
